A study of Mus musculus with 7 samples.

Results

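Absorption of dietary protein in the duodenum was examined through 10 genes that encode carriers of peptides and amino acids in the enterocyte. The genes were Slc15a1, Slc36a1, Slc6a19, Slc6a20a, Slc7a9, Slc3a1, Slc1a1, Slc3a2, Slc7a7 and Slc7a8, and they were taken by symbol from the 14795 genes of the deposited table, where all 10 were found. RNA of whole duodena was sequenced from 4 Ppara I-KO mice and 3 lox/lox controls, all male, given as C57BL/6 in the sample labels, and kept on HFD for 8 weeks according to the methods of the study. Ppara encodes PPARα, a nuclear receptor that binds fatty acids and switches on genes of fat handling. The I-KO mice carried Ppar alpha loxP/loxP alleles together with a Villin-Cre transgene, which is active in the epithelium of the intestine, and the lox/lox controls were littermates with the same floxed alleles and no Cre. Only epithelial cells therefore lose the floxed part of the gene, while muscle, stromal and immune cells of the same tissue keep it. By the clock times in the sample labels the mice had gone 6 h without food and then 6 h with food before they were killed, and the labels give no age. Replicates are taken here as separate mice, and the 7 libraries are the units of every test.

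Protein is cut in the gut lumen to short peptides and single amino acids, and both are taken up across the brush border, the apical membrane of the enterocyte. A single proton-driven carrier brings in most short peptides, whereas amino acids use several carriers that differ in the charge and size of what they accept. Some carriers are pairs of a light chain, which forms the transport path, and a heavy chain, which brings the light chain to the membrane. A different set at the basolateral membrane passes amino acids on to the blood.

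The deposited values are read counts scaled to an adjusted library size (CPM). In each library the low values lay on multiples of the value of 1 read, which gave between 20741415 and 25885316 reads on listed genes per library. The member with the fewest reads, Slc1a1, still had 432 in its lowest library, where counting alone gives an error of 4.81% of the value, and the spread between mice exceeded this. Ppara itself was at 53.42, 49.29 and 63.18 CPM in the controls, and the I-KO libraries had 33.05, 40.58, 47.51 and 69.90 CPM. I-KO replicate 4 was above every lox/lox library, and the difference of -0.25 on the log2 scale (SE 0.22, limma adjusted p = 0.954) did not pass the threshold of 0.05. This total covers exons outside the floxed part and cells that have no Cre, and the deletion cannot be read from it. Sums of 10 enterocyte markers, which were between 55566 and 65619 CPM in lox/lox and between 55375 and 73208 CPM in I-KO, overlapped between the groups. Taken singly, 8 of these markers were higher in I-KO and 2 lower, and 2 had groups without overlap. Of 8 epithelial markers, 6 were higher and 2 lower, and 1 had groups without overlap. Over all genes tested, 50.6% were higher and 6.19% had groups without overlap. No marker on either list passed the adjusted threshold. The 3 duodenal markers Pdx1, Gata4 and Cybrd1 summed to between 171 and 281 CPM, and the ileal bile acid carrier Slc10a2 was at 0.51 CPM or less. In bulk tissue, fewer cells of a type and less RNA per cell cannot be told apart.

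None of the 10 carriers passed the test between the genotypes. With limma on log2(CPM + 1), the smallest adjusted p among them was 0.954, and 0 of 10 passed, against 0.0299% of the 13399 genes tested (4 genes). At an unadjusted p of 0.05 Slc36a1 passed, which is 1 of 10 beside 4.74% of all genes tested in either direction and 2.42% in its own direction, lower in I-KO. Groups overlapped for all 10 carriers, while they did not overlap for 6.19% of all genes tested. Fitted values were higher in I-KO for 6 carriers and lower for 4, with a median log2 fold change of 0.06 beside 0.0017 over all genes tested. For each of the 10, the 95% interval of the difference lay within a 2-fold change in either direction. The upper limit of Slc6a20a, 0.98 on the log2 scale, came closest to this bound. Intervals of the alternative fits were not compared with it. The exact permutation test over the 35 ways to split 7 libraries into 3 and 4, which cannot give a p below 0.0286, gave no p under 0.0857 for any member.

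**Figure D1:**
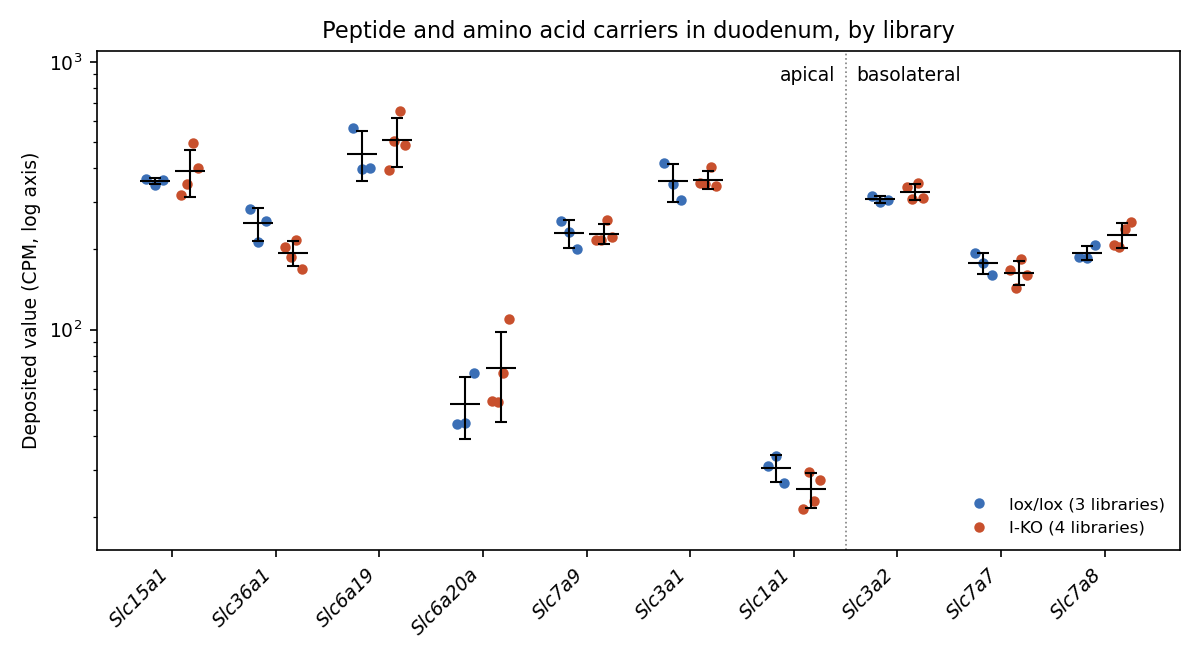
CPM of the 10 carriers (log axis) in 3 lox/lox and 4 I-KO libraries, one point per library, with the mean and SD of each group as black lines. The groups overlap for every carrier, and Slc36a1 has 3 of 4 I-KO points below all lox/lox points.

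**Figure D2:**
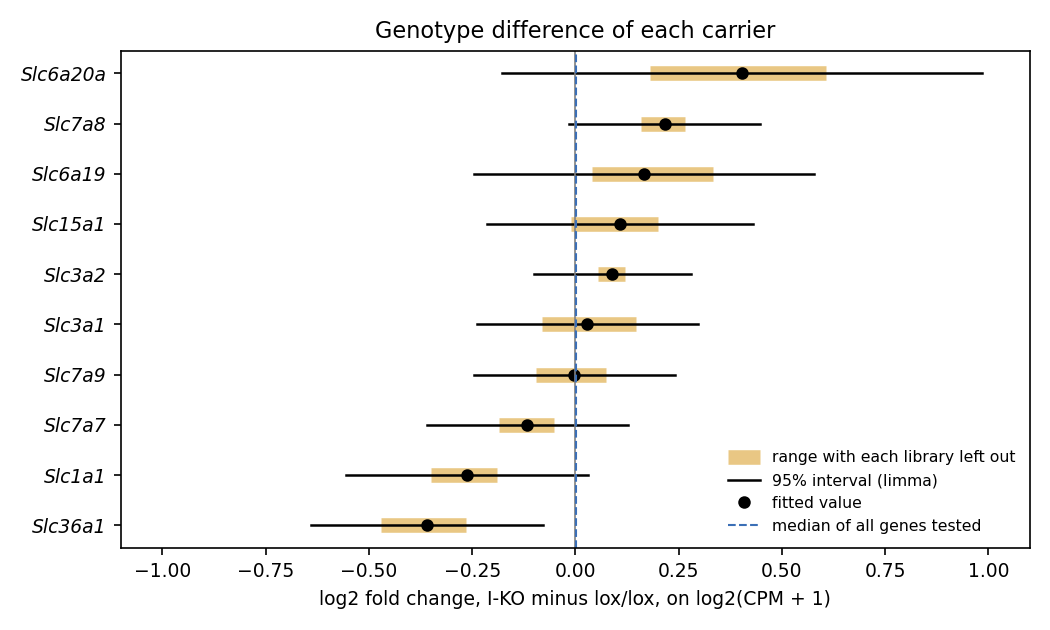
Log2 fold change of each carrier, I-KO minus lox/lox, on log2(CPM + 1), with the limma 95% interval as a line and the range over fits that leave out 1 library as a band. Every interval but that of Slc36a1 includes 0, and the bands of Slc15a1, Slc3a1 and Slc7a9 cross 0.

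Slc15a1 encodes the brush border carrier that takes up short peptides together with protons. It lies on the minus strand at chr14:121459621-121505252 of GRCm38, the assembly also called mm10. Its CPM was 365.52, 347.20 and 362.63 in lox/lox and 318.79, 349.42, 495.88 and 403.04 in I-KO. The 3 controls were close together, whereas I-KO libraries lay on both sides of them, 2 above all controls and 1 below. Means were 358 ± 9.85 (SD, n = 3) against 392 ± 77.6 CPM (SD, n = 4), and the log2 fold change was 0.11 with a 95% interval from -0.21 to 0.43 (exact permutation p = 0.629). Without I-KO replicate 3 the value was -0.01.

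Slc36a1 encodes a proton-driven carrier of small neutral amino acids such as glycine and proline, found at the brush border and also on lysosomes, and it spans chr11:55204350-55236330 on the plus strand. It was at 282.09, 212.34 and 254.04 CPM in lox/lox and at 203.27, 186.98, 217.11 and 168.16 CPM in I-KO. In 3 of 4 I-KO libraries the value was below all controls, and I-KO replicate 3 was just above the lowest control. Means were 249 ± 35.1 (SD, n = 3) against 194 ± 21.1 CPM (SD, n = 4), a ratio of 0.777. The log2 fold change was -0.36, with an SE of 0.12 and a 95% interval from -0.64 to -0.08. Of all genes tested, 1.13% had a lower log2 fold change. By absolute size, 97.8% of all genes tested had a smaller change than Slc36a1, and 98.5% a smaller one than Slc6a20a, which was higher in I-KO. The limma p was 0.018 before and 0.954 after adjustment over all genes, and the exact permutation p was 0.0857. When single libraries were left out, the difference of Slc36a1 stayed between -0.47 and -0.27, and the unadjusted limma p was 0.0803 without lox/lox replicate 1 and 0.0518 without lox/lox replicate 3. Under 17 alternative fits the unadjusted p was past 0.05 in 15 for Slc36a1, in 5 for Slc7a8 and in 3 for Slc1a1. These fits reuse the same libraries, so their counts are not separate tests.

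The promoter of Slc36a1, the carrier with the smallest unadjusted p, was read from RefSeq together with those of the other carriers, from 250 bases before to 50 bases after each start site. All 10 carriers matched, with 15 start sites among them. Capitals mark a match to AGGTCA, the core that many nuclear receptors bind, read on the opposite strand, and its first base is 27 bases before the start site. The sequence is on the plus strand at chr11:55204090-55204389 of GRCm38.p6.
Slc36a1: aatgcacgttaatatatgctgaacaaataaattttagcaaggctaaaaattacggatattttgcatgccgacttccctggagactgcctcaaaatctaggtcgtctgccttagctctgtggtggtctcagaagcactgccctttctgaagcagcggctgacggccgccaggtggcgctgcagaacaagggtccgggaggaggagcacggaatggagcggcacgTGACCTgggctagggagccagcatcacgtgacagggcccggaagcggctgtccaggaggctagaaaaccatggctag
This core was found in 4 of the 15 promoters, which belong to Slc36a1, Slc7a7 and Slc7a9, and in 16.3% of 32851 promoters of the same length. The 2 windows of Slc7a9 overlap and hold the same match. The whole element of PPARα and its partner RXR, searched on both strands as AGGTCA repeated after 1 base of any kind, with up to 2 mismatches, was found in 0 of the 15 promoters and in 3.86% of all. These are matches of letters in a short window, with motifs chosen after the sequences had been looked at, and they say nothing of sites elsewhere.

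Among the sodium-driven carriers, Slc6a19 encodes the main brush border carrier of neutral amino acids. It is at chr13:73679745-73704865 on the minus strand. CPM was 564.97, 398.12 and 400.47 in lox/lox and 395.85, 504.46, 653.67 and 490.59 in I-KO. The highest value was in I-KO replicate 3 and the next in lox/lox replicate 1, so that each group held a library well above its others. The log2 fold change was 0.17 with a 95% interval from -0.25 to 0.58 (exact permutation p = 0.486).

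Slc6a20a encodes a carrier of proline and related imino acids and is at chr9:123634770-123678885 on the minus strand. It was the carrier that varied most, at 44.58, 44.96 and 68.64 CPM in lox/lox and 54.26, 53.74, 69.12 and 109.96 CPM in I-KO. The highest library was 2.47 times the lowest, and I-KO replicate 4 stood above the rest. Its log2 fold change of 0.40 was the largest of the 10, with the widest 95% interval, from -0.18 to 0.98 (exact permutation p = 0.286), and without single libraries it ranged from 0.18 to 0.61. Of its 100-base stretches, 18.5% are shared with another gene, the neighbouring paralog Slc6a20b or an antisense transcript. Slc6a20b was listed at between 0.16 and 0.87 CPM, below the filter.

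Slc1a1 encodes the carrier of glutamate and aspartate and lies at chr19:28835049-28913960 on the plus strand. It had the lowest CPM of the 10, at 31.00, 33.67 and 26.79 in lox/lox and 21.50, 29.46, 22.88 and 27.57 in I-KO. In I-KO, 2 libraries were below all controls and 2 lay within their range. The log2 fold change was -0.26 (95% interval -0.56 to 0.03, exact permutation p = 0.171). Of the 100-base stretches of Slc1a1, 29.9% overlap the gene 4430402I18Rik on the opposite strand. Whether reads were assigned by strand is not given in the sources used here.

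Slc7a9 and Slc3a1 encode the light and the heavy chain of the brush border exchanger that brings in cystine, lysine and arginine in return for neutral amino acids, and loss of either chain is known as a cause of cystinuria. Slc7a9 is at chr7:35448796-35466036 and Slc3a1 at chr17:85028376-85064236, both on the plus strand. The light chain was at 253.85, 232.54 and 200.41 CPM in lox/lox and at 216.68, 217.03, 257.21 and 220.91 CPM in I-KO. The heavy chain was at 417.71, 351.06 and 304.61 CPM in lox/lox and at 354.13, 350.83, 403.88 and 342.60 CPM in I-KO. The means were the closest of any carrier between genotypes, with ratios of I-KO to lox/lox of 0.996 for Slc7a9 and 1.01 for Slc3a1. The log2 fold changes were -0.0032 (95% interval -0.25 to 0.24) and 0.03 (95% interval -0.24 to 0.30), and the direction of both turned when single libraries were left out. Reads on Slc3a1 can be shared with Prepl, a gene on the opposite strand that overlaps 23.1% of its 100-base stretches.

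Over the 7 libraries both chains went up and down together. Both were lowest in lox/lox replicate 3 and highest in lox/lox replicate 1 and I-KO replicate 3. Pearson's r of log2(CPM + 1) was 0.949 (exact permutation p = 0.00675, adjusted p = 0.0169 over 5 pairs of partner genes, of which 3 are reported), while Spearman's rho was 0.714 (exact permutation p = 0.0881, adjusted p = 0.22). Per kilobase of exons, the ratio of Slc3a1 to Slc7a9 stayed between 1.78 and 1.94, so that its highest value was 1.09 times its lowest. Over the same libraries, the coefficient of variation was 10.6% for Slc3a1, 9.12% for Slc7a9 and 3.48% for their ratio. The relation rested in part on the libraries at the ends: without lox/lox replicates 1 and 3, r was 0.897 with an adjusted exact permutation p of 0.333 over 5 libraries, where few pairings are possible. Leaving out single libraries gave r between 0.918 and 0.968, with the largest adjusted permutation p, 0.118, without lox/lox replicate 3. Adjusted p was also above the threshold without lox/lox replicate 1 (0.0833) and without I-KO replicate 3 (0.0764). Relative to epithelial marker genes, r was 0.743 (adjusted exact permutation p = 0.0923). On column totals, r was 0.878 (adjusted exact permutation p = 0.00397). Both scalings were added after the data were seen. The part of epithelial content in the relation was not tested further.

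The promoters of both chains are shown because these genes moved together across libraries. Capitals mark matches to AGGTCA, here on the opposite strand, and to the palindrome of the HNF1 factors of gut, liver and kidney, GTTAAT followed after 1 base of any kind by its reverse complement, with up to 2 mismatches. Slc7a9 is shown at the first of its 2 start sites, chr7:35448842-35449141, and Slc3a1 at chr17:85028097-85028396, both on the plus strand of GRCm38.p6.
Slc7a9: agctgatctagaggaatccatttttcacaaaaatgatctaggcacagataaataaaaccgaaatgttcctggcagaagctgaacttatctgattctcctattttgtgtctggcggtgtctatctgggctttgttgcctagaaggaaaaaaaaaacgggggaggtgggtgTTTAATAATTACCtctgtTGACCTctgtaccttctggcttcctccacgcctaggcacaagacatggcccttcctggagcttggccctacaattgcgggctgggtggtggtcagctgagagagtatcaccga
Slc3a1: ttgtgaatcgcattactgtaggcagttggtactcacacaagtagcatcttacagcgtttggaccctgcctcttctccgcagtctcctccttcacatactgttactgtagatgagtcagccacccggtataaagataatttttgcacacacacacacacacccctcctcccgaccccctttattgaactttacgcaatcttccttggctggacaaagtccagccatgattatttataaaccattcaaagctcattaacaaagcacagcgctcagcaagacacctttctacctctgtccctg
In Slc7a9 the HNF1 match begins 81 bases and the nuclear receptor core 63 bases before the start site. Any match to this palindrome reads on both strands. In Slc3a1 none of the motifs searched was found in this window. An HNF1 match as loose as this was in 1.36% of all promoters and in 2 of the 15 promoters of the carriers, both of Slc7a9. These 2 windows of Slc7a9 overlap and hold the same HNF1 match. The fourth motif was TGATGNAA for the amino acid response factor ATF4. It was found in 2 of the 15 promoters of the carriers, both of Slc7a7, and in 3.97% of all promoters. These 2 windows of Slc7a7 overlap and share the match TGATGCAA, and 1 of them also holds TGATGAAA. The HNF1 and the ATF4 motif were thus each found in 1 carrier only, and the 2 promoters counted for each are not separate finds.

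The other 2 reported pairs of a heavy and a light chain, Slc3a2 with Slc7a7 and Slc3a2 with Slc7a8, had r of 0.388 and 0.384 and rho of 0.393 and 0.429, with adjusted exact permutation p of 0.497 for each r. For Slc3a2 with Slc7a8, r was 0.845 relative to epithelial markers (adjusted exact permutation p = 0.0526), 0.742 without I-KO replicate 4, and 0.0668 when I-KO replicate 3 was left out.

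**Figure D3:**
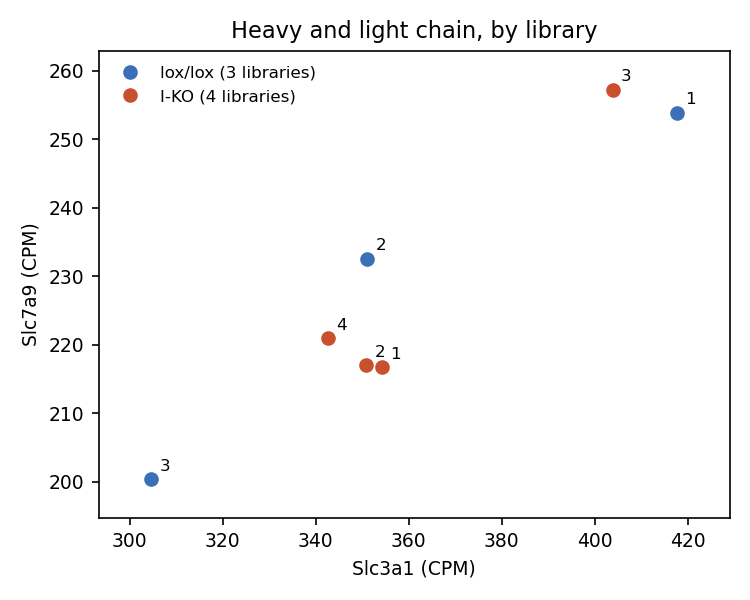
CPM of Slc7a9 against CPM of Slc3a1, one point per library, numbered by replicate, on axes that do not start at 0. I-KO replicate 3 and lox/lox replicate 1 lie at the upper right, lox/lox replicate 3 at the lower left, and points of both genotypes are mixed along the trend.

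At the basolateral membrane, Slc3a2 encodes the heavy chain that several light chains share. It spans chr19:8706882-8723369 on the minus strand. CPM was 316.90, 300.40 and 303.98 in lox/lox and 339.86, 306.91, 352.45 and 310.19 in I-KO, the narrowest range of the 10, with the highest library 1.17 times the lowest. In I-KO, 2 libraries were above all controls and none was below. The log2 fold change was 0.09 with a 95% interval from -0.10 to 0.28 (exact permutation p = 0.257).

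Slc7a7 and Slc7a8 encode light chains that pair with Slc3a2. Slc7a7 exports lysine and arginine and is mutated in lysinuric protein intolerance, while Slc7a8 exchanges neutral amino acids. The genes lie 304 kb apart on chromosome 14, at chr14:54369442-54417780 and chr14:54722209-54781946 on the minus strand. Slc7a7 was at 193.28, 177.16 and 160.69 CPM in lox/lox and at 166.58, 143.14, 184.11 and 159.85 CPM in I-KO, with a log2 fold change of -0.12 (95% interval -0.36 to 0.13, exact permutation p = 0.314). Slc7a8 was at 187.40, 185.48 and 206.74 CPM in lox/lox and at 206.71, 203.87, 237.40 and 253.11 CPM in I-KO. For Slc7a8 the lower 2 I-KO values were just under the highest control and the upper 2 above it, and the log2 fold change was 0.22 (95% interval -0.01 to 0.45, exact permutation p = 0.171).

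Ratios between carriers of the same library do not depend on how libraries are scaled, and 6 ratios per kilobase of exons were computed after the single values had been seen. The ratio of Slc3a2 to Slc7a7, heavy to light chain, was 1.54, 1.59 and 1.78 in lox/lox and 1.92, 2.01, 1.798 and 1.82 in I-KO. All 4 I-KO values were above all 3 controls, with means of 1.64 ± 0.124 (SD, n = 3) and 1.89 ± 0.0983 (SD, n = 4). The exact permutation p of 0.0286 is the smallest possible here, and after adjustment over the 6 ratios it was 0.171, which does not pass. For the ratio of Slc7a8 to Slc7a7 the means were 0.729 and 0.917, with 3 of 4 I-KO values above all controls (exact permutation p = 0.114, adjusted p = 0.229). The ratio of the peptide carrier Slc15a1 to Slc36a1 was 1.67 ± 0.197 (SD, n = 3) in the controls against 2.34 ± 0.440 (SD, n = 4) in I-KO (exact permutation p = 0.0857, adjusted p = 0.229). The ratios Slc3a1 to Slc7a9, Slc3a2 to Slc7a8 and Slc6a19 to Slc6a20a had an adjusted exact permutation p of 0.514 each.

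**Figure D4:**
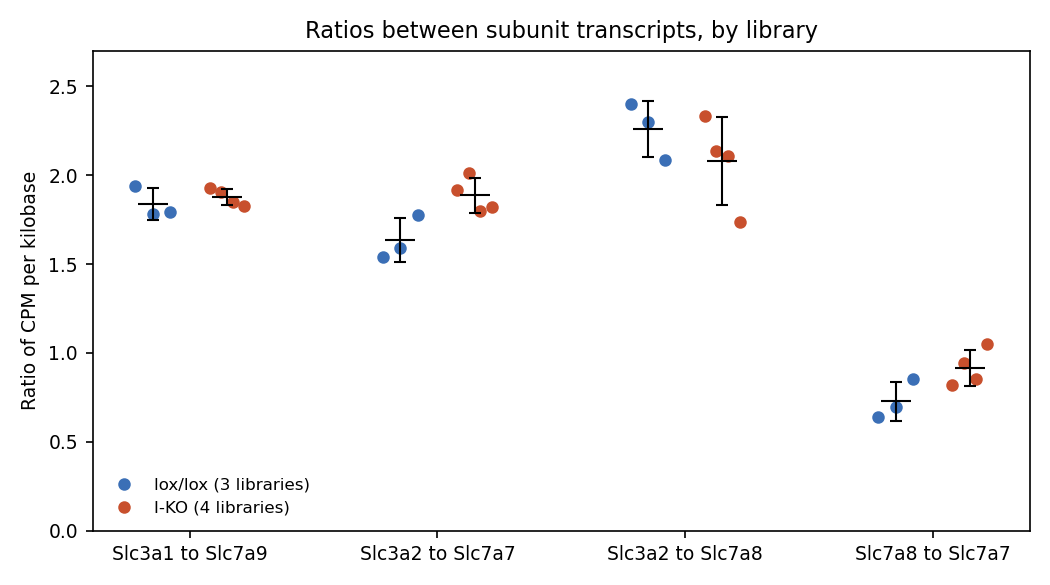
Ratios of CPM per kilobase between carrier subunits and between light chains, one point per library, with mean and SD of each group. The ratio of Slc3a2 to Slc7a7 lies between 1.54 and 1.78 in lox/lox and between 1.798 and 2.01 in I-KO, and the ratio of Slc3a1 to Slc7a9 has the narrowest spread.

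Levels of the carriers were compared with each other per kilobase of exons. Slc3a1 was highest, at 159 CPM per kilobase over the 7 libraries, and it was above the next gene, Slc6a19, in 7 of 7 libraries. Slc6a19 at 97.3, Slc3a2 at 90.3, Slc7a9 at 85.3 and Slc15a1 at 77.3 CPM per kilobase formed a middle group. Among these, the order of neighbours held in 4, 5 and 6 of 7 libraries, so that neighbours did not differ beyond their spread, whereas Slc6a19 was above Slc15a1 in 7 of 7. Slc15a1 was above Slc7a7, at 51.1 CPM per kilobase, in 7 of 7 libraries. Slc7a8 at 42.3 and Slc36a1 at 38.7 CPM per kilobase changed places between libraries, with Slc7a8 higher in 4 of 7. Slc6a20a at 15.6 and Slc1a1 at 3.34 CPM per kilobase were lowest, each below its upper neighbour in 7 of 7 libraries, and the order spanned 47.6-fold. With the longest transcript in place of all exons, 6 of 10 carriers kept their place and Slc15a1 moved from place 5 to place 2.

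**Figure D5:**
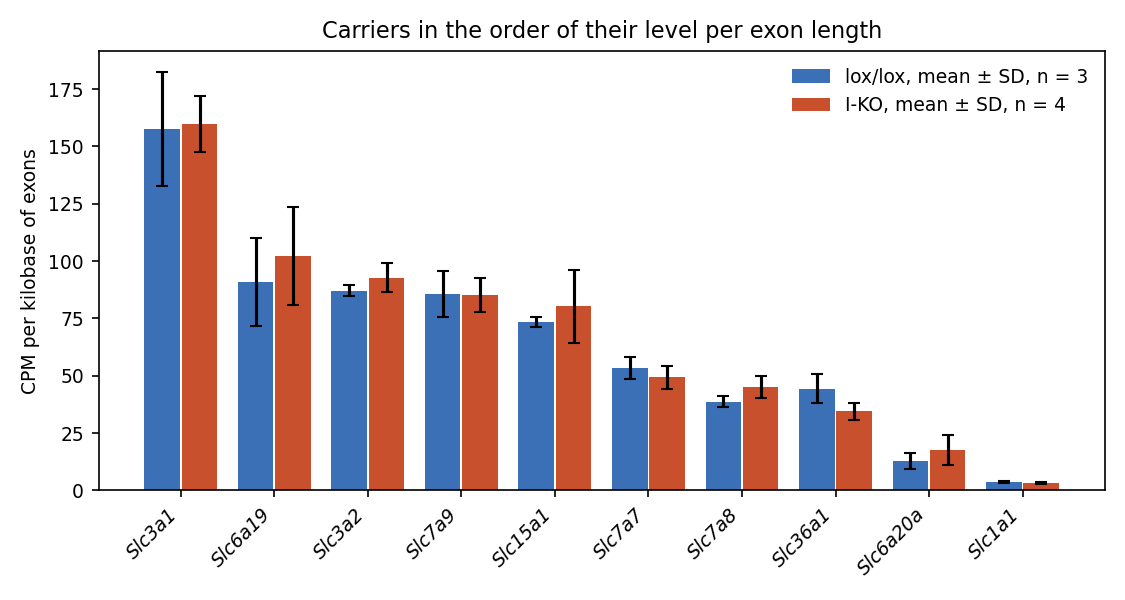
Mean CPM per kilobase of exons of the 10 carriers, in the order of the mean over 7 libraries, for lox/lox (n = 3) and I-KO (n = 4), with SD as error bars. Slc3a1 is highest at 159 and Slc1a1 lowest at 3.34 CPM per kilobase over all libraries.

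Summed over the 10 carriers, the level was 2410 ± 214 (SD, n = 3) in the controls against 2501 ± 276 CPM (SD, n = 4) in I-KO. The sum was highest in I-KO replicate 3, at 2894 CPM, and next in lox/lox replicate 1, at 2657 CPM. I-KO replicate 3 was the highest library for 4 carriers and lox/lox replicate 1 for 3. The same 2 libraries had the highest sums of 8 epithelial markers, 17157 and 15998 CPM, and the highest column totals, 1098618 and 1045790 CPM. The part of epithelial content or of scaling in the carriers' values was not tested.

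Among other carriers of amino acids and peptides, none passed the test either. Of 32 listed, 27 were in the table and 23 were tested, of which 11 were higher, 12 lower and 0 past the threshold, with a median log2 fold change of -0.0053. At an unadjusted p of 0.05, 1 of 23 passed, beside 4.74% of all genes tested. This gene was Slc7a11, which exchanges cystine for glutamate and is named here because it passed, after its value was seen. It had 3.91 ± 0.386 (SD, n = 3) in the controls against 3.00 ± 0.553 CPM (SD, n = 4) in I-KO, with a limma p of 0.0319 before and 0.954 after adjustment. Per kilobase of exons, the other peptide carriers Slc15a2, Slc15a3 and Slc15a4 were at means of 0.824, 1.86 and 2.41 CPM, below the 77.3 CPM of Slc15a1. The highest of the other amino acid carriers was Slc43a2, which carries large neutral amino acids, at 63.7 CPM per kilobase, between Slc15a1 and Slc7a7. Its CPM was 611 ± 48.0 (SD, n = 3) in the controls against 662 ± 46.6 (SD, n = 4) in I-KO, with a log2 fold change of 0.11 (SE 0.09).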

How the data were processed

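Libraries of duodenal RNA from 3 lox/lox and 4 I-KO mice were grouped by the sample labels. The authors deposited 1 table of signal values (CPM) for 14795 genes, which are counts divided by an adjusted library size and rounded to 2 decimals, and 1 line without a gene name was left out. The submitters' processing notes name the authors' tools and genome build as FastQC 0.11.2, TopHat2 2.0.13, Picard 1.80, HTSeq 0.6.1, edgeR and mm10. The authors used a negative binomial model of edgeR on counts. All low values lay within rounding of whole reads, but in 5 of 7 libraries fewer than 95% lay within 0.1 of a read, the limit set here for a count test, so a linear model with genotype alone was fitted to log2(CPM + 1) by limma 3.58.1 (R 4.3.3) for the 13399 genes above 1 CPM in at least 3 libraries. P-values are two-sided and adjusted by the Benjamini-Hochberg method over all genes tested, with a threshold of 0.05. Gene positions and exon lengths come from GENCODE M21. The members and the lists were chosen with earlier results of these data known. Named were all members, Ppara and, of each other list, genes past the threshold, up to 6 without overlap past an unadjusted p of 0.05, and up to 5 with the highest level per kilobase. Slc7a11, Trib3, Slc9a3r2 and Lgr5 were named outside this rule, after their values were seen. Correlations were computed for 5 pairs, and 2 of them are not reported here. The fit was tested on simulated data. Alternatives were other scalings, filters, pseudocounts and variance models, the replicate number as a block and libraries left out. Python 3.11.15, numpy 2.4.6, pandas 2.3.3, scipy 1.17.1 and matplotlib 3.10.9 were used.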

Additional observations from a re-analysis of the deposited data

Results flagged for a closer look

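In groups of 4 libraries, the gap of the highest or lowest value to its neighbour was compared with the whole range by Dixon's test at the 95% level. Of 23 quantities searched, 2 stood out, where chance gives 1.15. Slc7a9 in I-KO replicate 3, at 257.21 CPM, was above the other I-KO libraries by a gap of 0.896 of the range. The sum of pancreatic acinar genes was 443.5 CPM in I-KO replicate 1 and 41.2 CPM or less in the other I-KO libraries, a gap of 0.963 of the range, and it was 98.0 CPM in lox/lox replicate 2. Without these last 2 libraries, 0 of the 10 carriers passed the adjusted threshold.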

How the results depend on the processing

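Under 17 alternative fits, 0 of 10 carriers and 0 of the other carriers passed the adjusted threshold, with a smallest adjusted p of 0.632 among the members. At an unadjusted p of 0.05 the counts were 1 of 10 members, 1 of 23 other carriers and 635 of all 13399 genes tested (4.74%). Over all genes, 4 were called, with 9 under an intensity trend with a robust fit, 12 with sample quality weights and 3 to 5 with single libraries left out. Of 170 member values under alternatives, 159 kept their direction and 11 turned. The fits with an intensity trend, with or without the robust fit, and the fit without a filter cannot change a log2 fold change. The replicate block gave the same log2 fold changes as the fit without I-KO replicate 4. The 159 therefore include values that could not turn and values counted again. Slc7a9 was at 0.011 with the replicate number as a block and at 0.034 without lox/lox replicate 2 and I-KO replicate 1, and between -0.095 and 0.074 with single libraries left out. Slc3a1 was at -0.0081 with column totals and between -0.081 and 0.15 with single libraries left out, and Slc15a1 between -0.012 and 0.20. The members' median was between -0.02 and 0.12 with single libraries left out. With the block, 3 genes were called over all genes and 0 among the members and the other carriers. Between libraries of the same replicate number, correlations of deviations from the group means were -0.01, 0.18 and -0.0092. Only lox/lox replicate 2 had its closest I-KO library at the same number. Whether the replicate numbers pair the samples was not tested.

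Without the 2 libraries farthest from the median, r fell to 0.897 for Slc3a1 with Slc7a9 and was no longer past the threshold. Scalings added after the data were seen gave r of -0.069 for Slc3a2 with Slc7a7 on column totals, and 0.743 for Slc3a1 with Slc7a9 and 0.845 for Slc3a2 with Slc7a8 relative to epithelial markers. With single libraries left out, r was between 0.918 and 0.968 for Slc3a1 with Slc7a9, and the difference of the ratio of Slc6a19 to Slc6a20a was between -0.53 and 0.029 on the log2 scale. The order per kilobase kept 6 of 10 places with longest transcripts. The causes were not tested. The members' 95% intervals reached a median of 0.27 to either side of the value on the log2 scale.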

Other observations

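Peptidases of the brush border and cytosol, which release the substrates of these carriers, were tested for 17 of 18 listed genes, with 9 higher, 8 lower and 0 past the adjusted threshold or an unadjusted p of 0.05. Anpep, an aminopeptidase of the brush border, was at 4950 ± 759 (SD, n = 3) in the controls against 4463 ± 444 CPM (SD, n = 4) in I-KO. Among 15 tested genes of the amino acid response, 6 were higher and 9 lower, and 0 passed the adjusted threshold. Atf4, a factor of this response, was at 214 ± 37.4 (SD, n = 3) against 203 ± 31.3 CPM (SD, n = 4). Of the 9 partner proteins tested, 4 were higher and 5 lower, with 0 past the adjusted threshold.

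Trib3, Slc9a3r2, Fabp1 and Lgr5 were the genes of these and the marker lists past an unadjusted limma p of 0.05. Of all genes tested, 4.74% were past it. Trib3 was 1 of 15 tested genes of the amino acid response and Slc9a3r2 1 of 9 partner proteins. Fabp1 was 1 of 10 enterocyte markers and Lgr5 1 of 5 crypt markers, while the other marker lists had none. Fabp1 is named by the rule given above, which reads its own p and overlap, and the others are named outside it, after their values were seen. Fabp1, a fatty acid binding protein of enterocytes, was at 3380, 3398 and 4228 CPM in lox/lox and at 3215, 2109, 2544 and 2111 CPM in I-KO. All I-KO values of Fabp1 were below the controls, with a log2 fold change of -0.57 (SE 0.16), an exact permutation p of 0.0571 and a limma adjusted p of 0.822. Groups did not overlap for 6.19% of all genes tested and for 2 of the 10 enterocyte markers. Of these markers, 8 were higher in I-KO. Trib3, Slc9a3r2 and Lgr5 had log2 fold changes of 0.37, 0.31 and 0.40 and limma adjusted p of 0.954, 0.954 and 0.932.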
